A study of Arabidopsis thaliana with 2 samples.

Results

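The cytosolic ribosomal protein paralogs analysed here are 54 nuclear loci of *Arabidopsis thaliana* in 21 groups. Each group holds annotated copies of 1 protein. The rule gives the loci by name and uses no measured value, though the members were chosen with earlier results of these data known. Of the 54 loci, 52 were listed in each of both replicates, among 14454 loci in CC1 and 16391 in CC2. Of the loci, 30 code for proteins of the large (60S) subunit, in 12 groups, and 24 for proteins of the small (40S) subunit, in 9 groups, with RACK1, a scaffold protein that sits on the small subunit, counted among the latter. There were 11 groups of 2 loci, 8 groups of 3 and 2 groups of 4.

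The RNA came from the central cell, the female gamete that forms the endosperm once it is fertilized. Cells of the mature female gametophyte were cut out by laser-assisted microdissection from fixed flowers of the wild type accession Landsberg erecta, and poly(A)-primed cDNA was amplified and sequenced on the SOLiD platform. There was 1 condition with 2 biological replicates, CC1 and CC2, each a pool of sections from about 450 cells, and with a single condition the values are described without any test. The values are estimated counts of aligned reads per locus, called hits.

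The cytosolic ribosome of plants has a large subunit, where the peptide bond is formed and the new chain leaves through an exit tunnel, and a small subunit, which holds the mRNA and reads its codons. Almost every ribosomal protein of Arabidopsis is coded by a small family of expressed copies that differ little in protein sequence, and any ribosome carries the product of one of these copies at each position. Loss of single copies is known for defects of embryo, leaf and gametophyte development, so that which copy a cell type expresses has been of interest. Ribosome content is high in cells that grow and synthesize much protein.

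How far reads can tell the copies apart depends on their sequences, and the cases that bear most on the values below are shown first. All positions are those of the TAIR10.1 assembly and its RefSeq annotation, and capitals mark the positions at which the copies shown together differ. The assembly is of the accession Columbia, whereas the cells were of Landsberg erecta. Each stretch is 90 bases of coding sequence within 1 exon, the most 3′ one that aligned without a gap. The 2 copies of RPL3, a protein at the peptidyl transferase centre, are shown as the pair that differs most in level. They differed at 31 of the 90 bases.
RP1 (chr1:16268539-16268628, plus strand): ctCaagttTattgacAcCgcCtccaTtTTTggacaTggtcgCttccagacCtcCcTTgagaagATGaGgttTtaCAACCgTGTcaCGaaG
RPL3B (chr1:22720839-22720928, minus strand): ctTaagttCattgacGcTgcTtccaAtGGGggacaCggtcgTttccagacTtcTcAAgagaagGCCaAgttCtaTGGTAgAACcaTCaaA
The 3 RPS18 loci, whose protein lies in the head of the small subunit, are shown because their order changed between the replicates. Their proteins were 100% identical, and the stretch differed at 15 bases, each of which left the peptide the same.
PFL (chr1:8069071-8069160, plus strand): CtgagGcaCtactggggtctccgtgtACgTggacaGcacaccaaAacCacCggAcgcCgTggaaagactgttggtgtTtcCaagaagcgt
AT1G34030 (chr1:12370288-12370377, minus strand): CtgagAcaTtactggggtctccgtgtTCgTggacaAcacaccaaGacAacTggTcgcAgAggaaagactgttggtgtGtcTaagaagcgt
RPS18C (chr4:6174871-6174960, plus strand): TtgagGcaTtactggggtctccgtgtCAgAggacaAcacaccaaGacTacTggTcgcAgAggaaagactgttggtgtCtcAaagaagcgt
The 4 RPL11 loci, whose protein enters the ribosome together with RPL5 and the 5S rRNA, are shown since they spanned a wide range of levels with nearly the same protein. Protein identity was 99.5 to 100% and 16 of the bases differed.
RPL16A (chr2:17792854-17792943, plus strand): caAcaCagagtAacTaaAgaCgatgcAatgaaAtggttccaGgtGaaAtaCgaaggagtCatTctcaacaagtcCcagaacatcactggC
AT3G58700 (chr3:21712724-21712813, plus strand): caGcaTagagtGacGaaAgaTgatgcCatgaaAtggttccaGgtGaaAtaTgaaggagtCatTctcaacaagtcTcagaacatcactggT
RPL16B (chr4:10303114-10303203, plus strand): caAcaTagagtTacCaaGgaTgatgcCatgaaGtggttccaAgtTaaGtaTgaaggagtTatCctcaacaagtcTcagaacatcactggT
AT5G45775 (chr5:18565284-18565373, minus strand): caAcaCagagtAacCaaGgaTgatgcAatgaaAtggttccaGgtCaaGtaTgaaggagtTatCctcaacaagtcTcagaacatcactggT
Of the RPS2 group, XW6 is shown beside AT1G59359, one of the 54 loci with no value in either replicate, and beside AT1G58684, a further copy that is not among the 54. XW6 differed from both of the others at 3 of the 90 bases, and the other two were the same.
XW6 (chr1:21689993-21690082, plus strand): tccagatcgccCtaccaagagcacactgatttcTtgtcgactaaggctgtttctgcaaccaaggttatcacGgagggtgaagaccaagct
AT1G59359 (chr1:21842540-21842629, minus strand): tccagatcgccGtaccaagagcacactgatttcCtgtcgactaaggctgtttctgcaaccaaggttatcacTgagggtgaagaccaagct
AT1G58684 (chr1:21770024-21770113, minus strand): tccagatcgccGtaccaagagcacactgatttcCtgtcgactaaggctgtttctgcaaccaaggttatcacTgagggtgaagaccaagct

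Reads were 50 bases long, so that every transcript was cut into overlapping windows of that length. In total, 35 of the 54 loci had no window in common with any paralog of their group, and the median share of windows found in no paralog was 100%. When windows with up to 2 mismatches were counted as shared, the median was 96.9%. Without mismatches, only 4 loci had under 80% of windows of their own. They were the pair AT1G33120 (46.6%) and PGY2 (45.8%) of RPL9 and the pair XW6 (72.3%) and AT1G59359 (73.4%) of RPS2. With up to 2 mismatches 6 loci had under 80%. These were AT1G33120 (34.7%), PGY2 (33.7%), XW6 (43.2%), AT1G59359 (45.4%), SAG24 (78.5%) and AT2G31610 (79.8%). Windows were also compared with all annotated transcripts, inside and outside the group and on either strand. The last 250 bases, the end toward which coverage of these libraries leaned, were then free of shared windows in 47 of the 54 loci. In the same comparison AT1G59359 had no window of its own, since all 1239 of its windows were also in AT1G58684. RPL27AB, an RPL27a copy, shared 98.2% of its windows with AT1G23300, a gene annotated over it on the opposite strand that was not listed in either replicate. The RPL8 copy AT4G36130 shared 20.7% of its windows, the whole of its last 250 bases included, with AT4G36140 on the opposite strand, which had 229 hits in CC1 and 120 in CC2. The P0 copy AT2G40010 shared 42.0% with the long non-coding RNA gene AT2G40008 on the opposite strand, which had 46.5 hits in CC1 and 61.6 in CC2. The libraries were not stranded, so that reads from these overlaps cannot be told apart.

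The deposited values also show where reads were shared out. Of all loci, 75.6% of the values in CC1 and 75.04% in CC2 were whole numbers, whereas 7 of the 52 listed ribosomal protein loci had a whole value in CC1 and 6 in CC2. The fractions often added up within a group. Of the 18 groups with a fractional value in CC1, 12 had a sum within 0.06 hits of a whole number, and in CC2 14 of 19 did. RPSa is among the 14 through this tolerance only, since RPSAb (366.025 hits) was fractional there and P40 (10073 hits) was whole. In RPL4, 5838.22 and 7200.78 hits made 13039 in CC1, and in RACK1 the 3 values of CC1 made 11728. The sums of RPL5, RPL11, RPL28 and P0 were not whole in either replicate, and each of these groups has a member that shares windows with a locus outside the group. RPL8, RPL27a and RPSa also have such a member, and their sums were within 0.06 hits of a whole number in both replicates.

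Library size was 15257122 listed hits in CC1 and 14857500 in CC2. Of 27444 annotated nuclear protein-coding loci, 50.5% were listed in CC1 and 57.2% in CC2. All levels below are in hits per 1000000 listed hits (HPM), and levels of different loci are compared only as HPM per kb of the longest annotated transcript. The 6 central cell markers (FIS2, FWA, DME, AGL80, AGL61 and MEA) were all listed and summed to 1573 HPM in CC1 and 1302 HPM in CC2. The 5 egg cell genes of the EC1 family summed to 1355 and 902 HPM. Of 6 synergid markers the 5 LURE1 genes summed to 208 HPM in CC1 and 960 HPM in CC2, and MYB98 was not listed. Of 2 integument markers, BAN was at 4.72 and 1.14 HPM and INO was not listed. The 2 photosynthetic genes CAB1 and RBCS1A summed to 1686 and 1914 HPM. Their part in the values below was not tested.

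In both pools, where markers of other cell types were also listed, the ribosomal protein loci were mostly among the abundant mRNAs. Together they took 19690.2 HPM in CC1 and 18549.6 HPM in CC2, or 1.97% and 1.85% of all listed hits (mean 19119.9 ± 807 HPM, SD, n = 2). The 60S loci took 11017 HPM in CC1 and 10257 HPM in CC2, and the 40S loci 8673 and 8292 HPM. The median level of a listed locus was 347 HPM per kb in CC1 and 316 in CC2, beside 11.1 and 8.86 HPM per kb for all listed nuclear protein-coding loci. By mean level, 45 of the 52 lay above the 90th percentile of listed nuclear protein-coding loci and 3 above the 99th, STV1 (RPL24), AT1G70600 (RPL27a) and EMB2296 (RPL8). The lowest, RPL3B, lay at percentile 55.2. In a pool of cells, a lower level from fewer cells of a type and from less RNA per cell cannot be told apart.

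The groups differed far less than their members. Summed over the paralogs, the levels ran from 340 ± 42.4 HPM per kb for RPL3 to 1357 ± 108 HPM per kb for RPL27a (SD, n = 2), a range of 3.99-fold, while single listed loci spanned 85.7-fold. Without division by length, the mean sums ran from 589 HPM for RPL3 to 1256 HPM for RPS6, with RPL27a at 1227 HPM. Per kb, RPL27a was followed at the top by RPS10 (1204 HPM per kb in CC1 and 1175 in CC2), RPS13 (1196 and 1100) and RPL24 (1118 and 1067). At the low end were RPL3, RPL4, RPS2, P0 and RACK1, with means of 340 to 508 HPM per kb. Neighbours in this order mostly overlapped in their replicate values, but all values of the 4 highest groups lay above all values of the 8 lowest, RPL5, RPL23A, RPSa and the 5 just named. The order depends on the division by length, which matters in libraries whose coverage leans to the 3′ end. In summed HPM, RPL5 (mean 984 HPM) lay above RPL24 (mean 971 HPM). Of all groups, RPS2 had the largest log2 ratio of summed HPM between the replicates in size, with 719.7 HPM in CC1 and 562 HPM in CC2 (log2 ratio −0.36).

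**Figure D1:**
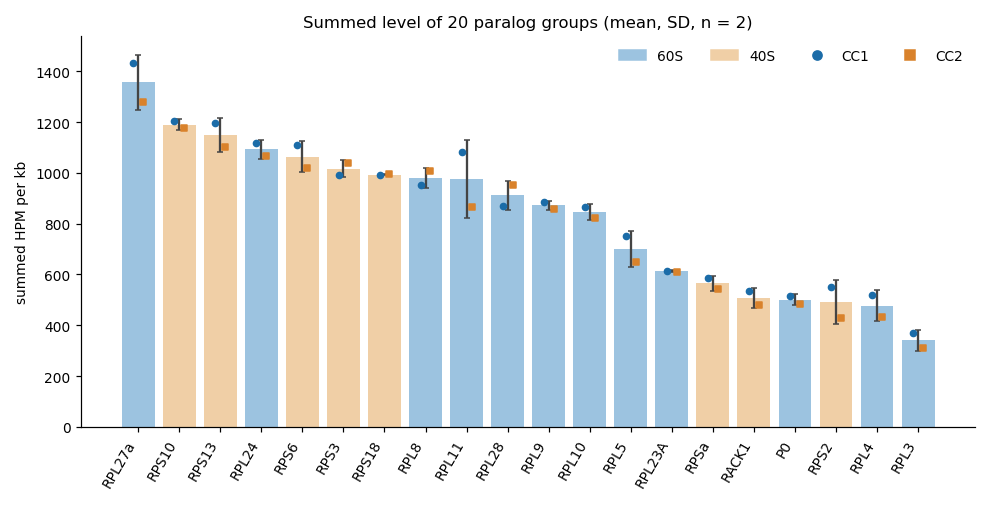
Summed level of 20 paralog groups in HPM per kb of transcript. Bars are the mean of both replicates and error bars the SD (n = 2), circles are CC1 and squares CC2, and bar colour gives the subunit. Sums run from 340 HPM per kb (RPL3) to 1357 (RPL27a).

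Within the groups, 1 paralog usually led, and the others were nearly always listed beside it. The share of a locus is its part of the summed HPM per kb of its group, and the leading locus is the one with the highest mean share. The leading locus held 40.2% to 97.1% of its group (median 60.6%). It was the same in both replicates in 18 of 21 groups, held at least 50% in both in 15 groups, and held at least 75% in both in 4, namely RPL3, RPL8, RPL24 and RPSa. In the 11 groups of 2 loci the mean share of the leading locus is at least 50% by definition, so that the count of 15 depends on group size. In 9 groups the leading locus was less than 1.5-fold above the next in both replicates. When hits were not divided by length, which matters in libraries whose coverage leans to the 3′ end, 20 of the 21 leading loci stayed the same, and RPS18 was the exception. The groups with at least 75% in both replicates were then 3, namely RPL3, RPSa and RPS2, since EMB2296 of RPL8 held 74.8% and STV1 of RPL24 74.6% in CC2.

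**Figure D2:**
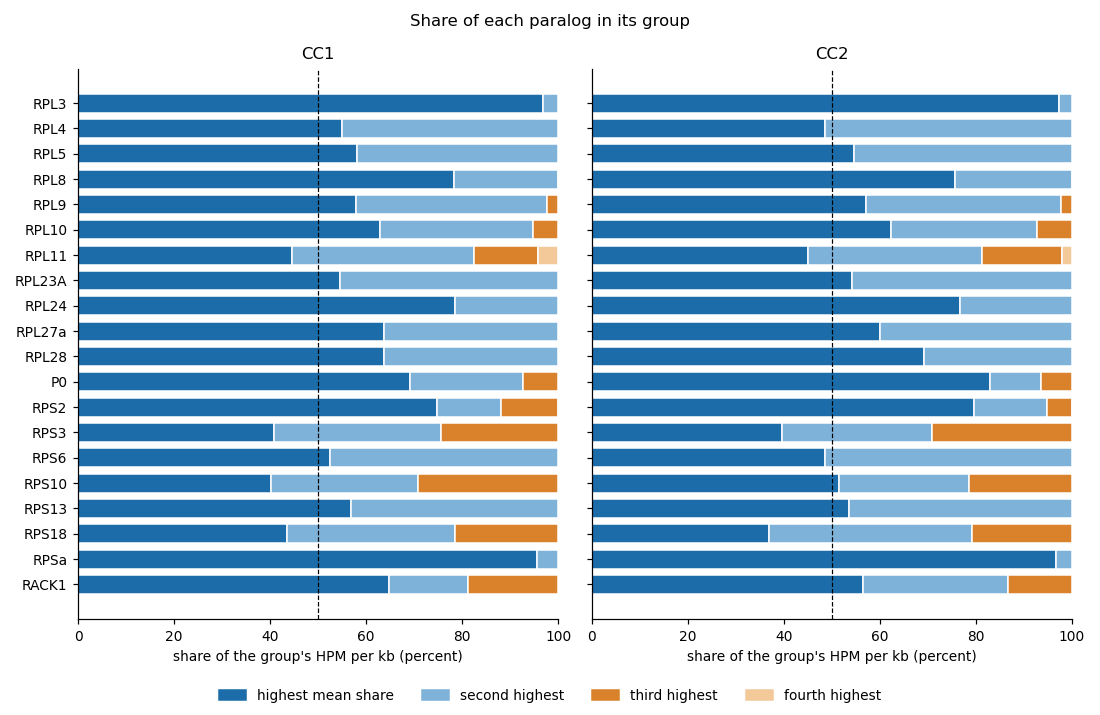
Share of each paralog in the HPM per kb of its group, in percent, in 20 groups, for CC1 (left) and CC2 (right). Colours give the order of the mean shares within a group, and the dashed line is at 50%. RP1 (RPL3) and P40 (RPSa) hold over 95% of their groups, and RPS6 and RPL4 are split close to 50%.

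RPL3 and RPSa were carried almost wholly by 1 locus each. In RPL3, RP1 was at 359 HPM per kb in CC1 and 302 in CC2, and RPL3B at 11.5 and 8.29. RP1 thus held 96.9% and 97.3% of the group, and none of the 50-base windows of either locus was shared. In RPSa, a protein of the small subunit related to the laminin receptor of animals, P40 was at 559 HPM per kb in CC1 and 526 in CC2, and RPSAb at 25.8 and 17.6. P40 held 95.6% and 96.8%. RPL3 and RPSa proteins were 86.2% and 59.4% identical, the latter with the longer annotated isoform of RPSAb, and the RPSa pair was the least alike of all groups.

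In RPL8 and RPL24 the leading locus held over 75% of the HPM per kb in both replicates. RPL8 lies close to the peptidyl transferase centre. EMB2296, a locus named for its embryo-defective mutant, was at 746 HPM per kb in CC1 and 763 in CC2, AT4G36130 at 207 and 245, and AT3G51190 was not listed in either replicate. The share of EMB2296 was 78.3% and 75.7%. RPL24 forms a bridge between the subunits. Its copy STV1 (SHORT VALVE1), which is needed for gynoecium patterning, was at 878 HPM per kb in CC1 and 818 in CC2, with RPL24A at 240.2 and 249, so that STV1 held 78.5% and 76.7%. STV1 had the highest mean level per kb of all 54 loci, at 848 ± 42.6 HPM per kb (SD, n = 2), and AT1G70600 of RPL27a (914 in CC1 and 769 in CC2) did not differ from it beyond the replicates. Without division by length, EMB2296 (mean 888 HPM) and AT1G70600 (807 HPM) were above STV1 (734 HPM).

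P0 and RPS2 had leading loci with similar mean shares (76.0% and 77.2%) and a wider spread between the replicates. P0 anchors the acidic stalk proteins that recruit the elongation factors. AT3G09200 was at 357 HPM per kb in CC1 and 402 in CC2, AT3G11250 at 121 and 51.2, and AT2G40010 at 38.5 and 31.1. The share of AT3G09200 was 69.1% in CC1 and 83.0% in CC2, the largest shift of any leading locus, at 13.9 percentage points. RPS2 lines the channel through which the mRNA enters. AT2G41840 was at 411 HPM per kb in CC1 and 342 in CC2, XW6 at 74.2 and 64.7, AT3G57490 at 65.4 and 22.4, and AT1G59359 was not listed. AT2G41840 thus held 74.7% in CC1 and 79.7% in CC2.

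The RPS2 values depend on which copies are counted. XW6 (chr1:21688935-21690290) and AT1G59359 (chr1:21842190-21843819) lie on chromosome 1 with further copies, AT1G58684 and AT1G58983. AT1G59359 and these other two code for 100% identical proteins, and XW6 is 99.6% identical to them. XW6 had 1404 hits in CC1 and 1191 in CC2, AT1G58684 had 1080 hits in CC1 and was not listed in CC2, and AT1G58983 and AT1G59359 were not listed in either. With unlisted copies counted as 0, though not measured as 0, the 4 copies summed to 163 HPM in CC1 and 80.2 HPM in CC2, a log2 ratio of −1.02. XW6, the only copy listed in both replicates, had a log2 ratio of −0.20. With all of them in the sum, AT2G41840 held 67.9% in CC1 and 79.7% in CC2. Hits of AT1G58684 and AT1G59359 cannot be told apart, as the shared windows above show.

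Groups of the large subunit with a moderate leader followed. RPL10 contacts the tRNA sites and completes the maturation of the large subunit. SAC52 was at 545 HPM per kb in CC1 and 512 in CC2, SAG24 at 277 and 250.05, and RPL10B at 45.1 and 59.8. SAC52 held 62.9% and 62.3%, and the order of the 3 copies was the same in both replicates. In RPL28, AT2G19730 was at 554 and 658 HPM per kb and AT4G29410 at 316 and 294, giving AT2G19730 63.7% and 69.1%. In RPL27a, AT1G70600 was at 914 and 769 HPM per kb and RPL27AB at 519 and 512, so that AT1G70600 held 63.8% and 60.03%. Both RPL27a loci thus stood high among all members, and both are annotated with 1 exon.

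RPL5 binds the 5S rRNA. ATL5 was at 437 HPM per kb in CC1 and 355 in CC2, and RPL5B at 314 and 295. ATL5, whose mutants enhance leaf polarity defects, held 58.2% and 54.6%. In RPL9, PGY2 (PIGGYBACK2, also known from leaf polarity mutants) was at 511 and 491 HPM per kb, its neighbour AT1G33120 at 351 and 349, and AT4G10450 at 21.7 and 19.4. PGY2 and AT1G33120 lie on chromosome 1 at chr1:12023225-12024783 and chr1:12010879-12012547, their proteins were 100% identical, and each had under 50% of windows of its own, so that their split of 57.8% to 39.8% in CC1 rests on the rest of the windows and on the sharing-out of ambiguous hits. The windows of their own included all of the last 250 bases in both loci.

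RPL11 was spread over 4 loci. RPL16B was at 484 HPM per kb in CC1 and 389.6 in CC2, AT5G45775 at 409 and 315, AT3G58700 at 144 and 144, and RPL16A at 46.8 and 18.6. RPL16B held 44.6% and 45.0%, AT5G45775 37.8% and 36.3%, and RPL16A 4.32% and 2.15%. The 4 loci kept their order in both replicates. In RPL23A, which lies at the mouth of the exit tunnel, RPL23AA was at 335 and 331 HPM per kb and RPL23AB at 280.0 and 279. RPL23AA led with 54.5% and 54.3%, but with 66.5% and 66.3% when hits were not divided by length, since its longest annotated transcript has 1495 bases and that of RPL23AB 903. This was the group in which length mattered most.

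RPL4 reaches into the exit tunnel, and its 2 copies could not be ranked. AT5G02870 was at 286 HPM per kb in CC1 and 211 in CC2, and AT3G09630 at 234 and 223. The share of AT5G02870 in the hits was 55.2% in CC1 (95% Wilson interval 54.4 to 56.1%) and 48.8% in CC2 (47.9 to 49.8%). These intervals cover counting error only, not the spread between biological samples, and amplified reads are not independent molecules. The leading copy changed from one replicate to the other.

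In the small subunit, RACK1 had a clear leader. ATARCA (RACK1A) was at 347 and 272 HPM per kb, RACK1B_AT at 88.0 and 145, and RACK1C_AT at 101 and 64.5. ATARCA held 64.8% and 56.5%, while RACK1B_AT and RACK1C_AT changed places, the former from 16.4% to 30.1% and the latter from 18.8% to 13.4%.

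RPS13 and RPS3 were shared more evenly. AT3G60770 was at 679 HPM per kb in CC1 and 589 in CC2, and RPS13A, known for its pointed-leaf mutant, at 517 and 511. AT3G60770 held 56.8% and 53.5% of RPS13, with proteins 99.3% identical. RPS3 guards the mRNA entry site. AT3G53870 was at 405 and 412 HPM per kb, AT5G35530 at 346 and 326, and AT2G31610 at 242 and 302. The 3 loci held 40.8%, 34.8% and 24.4% in CC1 and 39.6%, 31.3% and 29.1% in CC2, where an equal split would give 33.3%.

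RPS10 sits at the head of the small subunit. RPS10B was at 483 HPM per kb in CC1 and 604 in CC2, AT5G52650 at 371 and 317, and AT4G25740 at 351 and 253. RPS10B held 40.1% in CC1 and 51.5% in CC2, at the expense of both others. Its proteins were the least alike within the 3-locus groups, at 75 to 88.4% identity.

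RPS6 and RPS18 had no stable leader. RPS6 is the protein that the growth-regulated S6 kinases phosphorylate. Its copy RPS6 (AT4G31700) was at 582 HPM per kb in CC1 and 496 in CC2, and EMB3010 (RPS6B) at 526 and 523. The share of AT4G31700 in the hits was 52.1% in CC1 (95% Wilson interval 51.4 to 52.8%) and 48.2% in CC2 (47.5 to 48.9%). In RPS18, AT1G34030 was at 431 and 368 HPM per kb, RPS18C at 346 and 419.5, and PFL (POINTED FIRST LEAF, RPS18A) at 214 and 208. AT1G34030 held 43.5% in CC1 and 36.9% in CC2, RPS18C 34.9% and 42.2%, and PFL 21.6% and 20.9%. PFL was thus the lowest in both, and the order of the other two turned. All 3 code for the same protein, as shown above, and none of their 50-base windows was shared without mismatch.

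**Figure D3:**
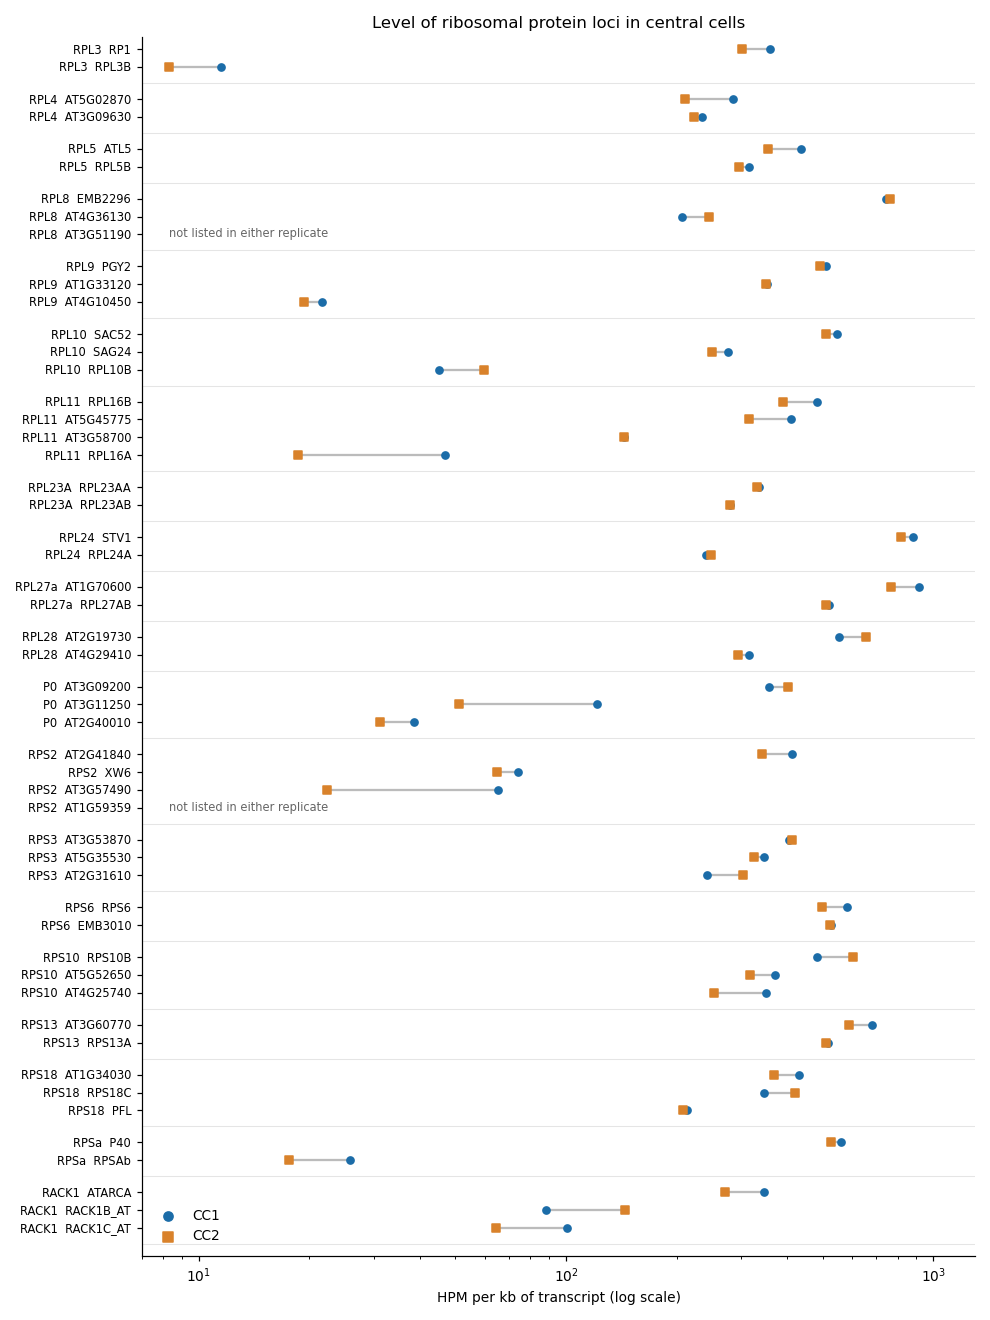
Level of the loci of 20 groups in HPM per kb of transcript, on a log scale, in CC1 (circles) and CC2 (squares), ordered by mean level within each group. The loci without points were listed in neither replicate. STV1 has the highest mean, 848 HPM per kb, and RPL3B is lowest at 11.5 and 8.29.

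The loci that were not listed in either replicate were AT3G51190 of RPL8 and AT1G59359 of RPS2. The authors listed a locus only with at least 5 hits, 1 of them within 250 bases of the 3′ end, so that these loci were not measured as 0. At this minimum, 5 hits are 0.328 HPM in CC1 and 0.337 HPM in CC2. None of the 821 windows of AT3G51190 was shared with another transcript, and in this it differs from AT1G59359. The authors also dropped reads with several alignments where uniquely aligned reads supported none of them. The part of this step in the missing value of AT1G59359 was not tested.

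The replicates differed less for these loci than for listed loci at large. Of 52 loci with a value in both, 3 differed over 2-fold in HPM, all lower in CC2, beside 30.2% of the 13426 loci listed in both (15.5% lower and 14.7% higher in CC2). AT3G57490 (RPS2) was at 80.8 HPM in CC1 and 27.7 HPM in CC2 (log2 ratio −1.55), RPL16A (RPL11) at 39.6 and 15.8 HPM (−1.33), and AT3G11250 (P0) at 163 and 68.7 HPM (−1.24). None of the 3 was the leading locus of its group. The study reports a lower cDNA yield and slightly shorter cDNA for CC1 than for CC2. It also reports signs of fungal contamination in CC1, and holds an effect on the alignments to be unlikely. The part of these in the differences was not tested. The median absolute log2 ratio was 0.21 over the ribosomal protein loci and 0.59 over all loci listed in both.

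Most listed loci had far fewer hits than these. The median was 5803 hits for the ribosomal protein loci in CC1 and 291 for all. Among 2431 other loci with a mean of at least 1000 hits, 4.36% differed over 2-fold and the median absolute log2 ratio was 0.28. Of the 45 ribosomal protein loci with as many hits, 1 differed over 2-fold, and the median was 0.17. The share past 2-fold among these 45 is thus near that of other abundant loci. Of the 52, 39 were lower in CC2 and 13 higher, with a median log2 ratio of −0.09, beside −0.07 over all loci listed in both. This split depends on the scaling, with 29 lower and 23 higher under edgeR TMM factors (median −0.01) and 30 lower and 22 higher under DESeq2 size factors (median −0.03). The leading loci differed by 1.35-fold at most (AT5G02870 of RPL4).

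**Figure D4:**
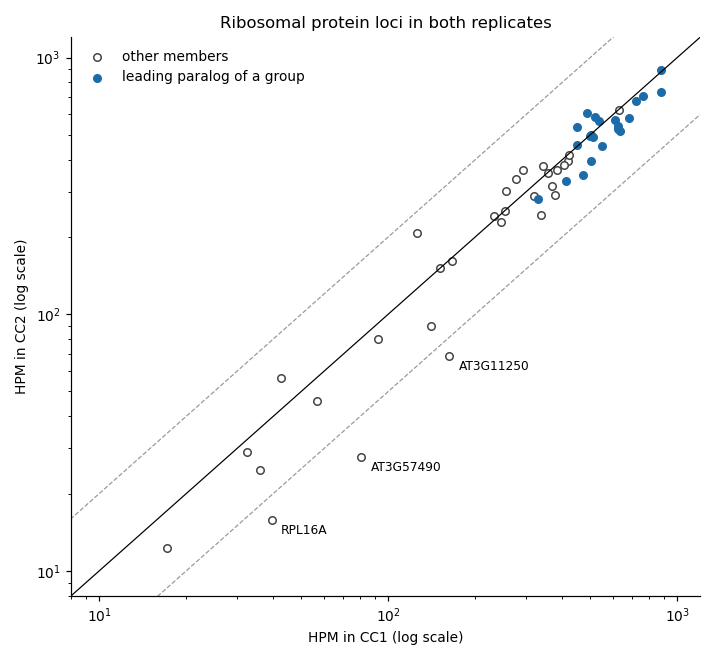
HPM of each listed locus in CC1 (x axis) and CC2 (y axis), both on log scales. Filled points are leading loci, the solid line marks equal values and the dashed lines a 2-fold difference. The 3 labelled loci lie beyond the lower dashed line, and none lies beyond the upper one.

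The start regions of these genes are shown because the loci are abundant together. Each was read as the 250 bases before and 50 after the annotated start. The telo box AAACCCTA and site II, written as TGGGCC or TGGGCT, are elements known from plant ribosomal protein genes and were searched on both strands. Where they adjoin, they may share a letter. A telo box was in 27 of 54 start regions (50%), beside 6.22% of 27443 nuclear protein-coding genes, and site II was in 42 (77.8%), beside 21.7%. Both were in 20 (37.0%) beside 2.205%, and neither was in 5 (9.26%) beside 74.3%. Leading loci and the others had similar counts, with a telo box in 11 of 21 and 16 of 33, and site II in 17 of 21 and 25 of 33.

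**Figure D5:**
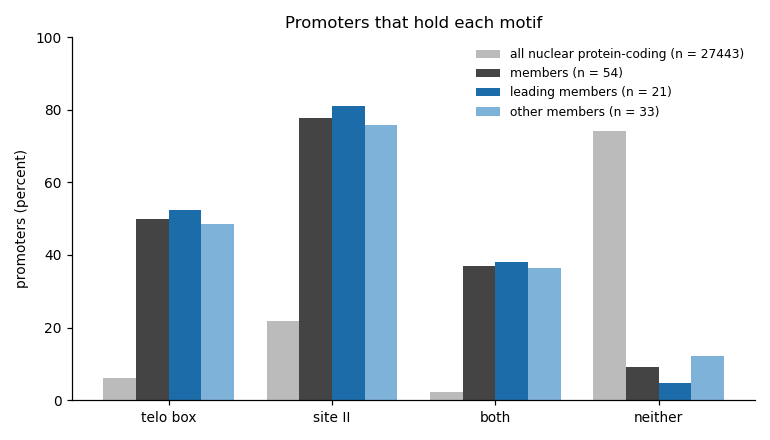
Share of start regions, in percent, that hold a telo box, site II, both or neither, for all nuclear protein-coding genes (n = 27443), the 54 ribosomal protein loci, the 21 leading loci and the 33 others. The leading and other loci have similar bars, and all genes have lower bars for each element.

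The start regions of the RPSa pair are printed, from 150 bases before to 30 after the annotated start, chosen after the matches were known as a pair in which the leading locus had a match and the other copy had none. Capitals mark the telo box. P40 holds 1 telo box and no site II.
P40 (chr1:27244902-27245081, minus strand): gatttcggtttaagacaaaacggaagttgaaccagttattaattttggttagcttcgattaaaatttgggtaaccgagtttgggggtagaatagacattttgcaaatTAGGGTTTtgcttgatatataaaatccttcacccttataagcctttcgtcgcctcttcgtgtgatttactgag
RPSAb (chr3:1311100-1311279, minus strand): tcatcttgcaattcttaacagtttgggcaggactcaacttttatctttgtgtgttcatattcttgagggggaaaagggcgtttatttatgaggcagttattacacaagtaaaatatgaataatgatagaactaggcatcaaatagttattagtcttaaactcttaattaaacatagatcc
P40 was 21.7-fold above RPSAb in CC1 and 29.8-fold in CC2 per kb. The pair does not stand for the other groups. RPL23AA led its group with neither element, while RPL23AB held 1 site II motif. AT3G51190, listed in neither replicate, held 2 telo boxes and 2 site II motifs. A link between the elements and the levels was not tested. A match describes the letters only, and no binding was measured.

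Genes that build or use the ribosome were listed as widely. Of 35 genes for translation elongation, growth signalling and ribosome assembly, 34 were listed in both replicates, with a median of 34.8 HPM per kb in CC1 and 33.9 in CC2. The highest were elongation factor 1-alpha genes, which deliver aminoacyl-tRNA to the ribosome. AT5G60390 was at 652 HPM per kb in CC1 and 602 in CC2, AT1G07930 at 691 and 513, and AT1G07940 at 279 and 292. S6K2, one of the S6 kinases, was not listed. None was over 2-fold lower in CC2, and 2 of 34 were over 2-fold higher, or 5.88%, beside 30.2% of all loci listed in both (15.5% lower and 14.7% higher). Among the 2431 loci outside the 54 with a mean of at least 1000 hits, which some genes of this list did not reach, the share was 4.36%. AT1G43860, a homolog of SBDS, which in yeast and mammals helps to release an assembly factor from the large subunit, was at 18.2 HPM in CC1 and 37.7 HPM in CC2 (log2 ratio 1.05). RH36, an RNA helicase required in female gametophyte development, was at 2.43 HPM in CC1 and 7.13 HPM in CC2 (1.56).

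Another list of 34 loci, found by words of the annotation such as 40S, 60S or acidic ribosomal protein, included a few assembly factors, and NMD3 is also among the 35 genes above. In both replicates 26 of the 34 were listed, with a median of 237 HPM per kb in CC1 and 270.02 in CC2. Of these 26, 4 were over 2-fold lower in CC2 and 2 over 2-fold higher, or 23.1%, beside 30.2% of all loci listed in both (15.5% lower and 14.7% higher). The share was 4.36% among the loci with a mean of at least 1000 hits, which some of the 26 did not reach.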

How the data were processed

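Central cells of Arabidopsis were profiled by mRNA-Seq in 2 biological replicates of 1 condition. Per the study's methods and the submitters' processing notes, the authors corrected reads of 50 bases and aligned them with TopHat 1.2 to TAIR10. A read with several alignments was split among them by the uniquely aligned reads at each place. Where these supported none of its alignments, the read was dropped. Hits on transcripts of several loci were then shared out in proportion to the unambiguous ones. The deposited values are thus expected counts, estimated for each locus and not normalized, for loci with at least 5 hits and 1 within 250 bases of the 3′ end. The libraries held 15257122 and 14857500 listed hits, and 1 hit was 0.0655 HPM in CC1 and 0.0673 HPM in CC2.

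From these, hits per 1000000 listed hits (HPM), HPM per kb of the longest RefSeq transcript (TAIR10.1), shares within groups and log2 ratios were computed. An unlisted locus entered shares as 0. The values of 1 group are in the counts and sums but are not reported here. With 1 condition, no test was run, and the spread between 2 replicates may be partly technical. Shares of hits have 95% Wilson intervals on rounded hits. Proteins were aligned globally over the longest coding sequence. All 54 loci could be named, and of the other genes the 3 highest, the unlisted and those over 2-fold. Members and lists were chosen with earlier results of these data known. Alternatives were hits without length, coding length, unlisted loci at 5 hits, a minimum of 10 or 50 hits, organelle loci left out, edgeR 4.0.16 and DESeq2 1.42.0 scaling, and 1 replicate at a time. The shortest transcript and the added RPS2 copies were chosen after seeing the data. Functions were tested on simulated data. Python 3.11.15, numpy 2.4.6, pandas 2.3.3, scipy 1.17.1, Biopython 1.88, matplotlib 3.10.9 and R 4.3.3 were used.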

Additional observations from a re-analysis of the deposited data

How the results depend on the processing

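The summed level of the 54 loci was 19119.9 HPM and ran from 19111.5 HPM (edgeR TMM scaling) to 19258.3 HPM (without organelle loci), and from 18549.6 to 19690.2 HPM when either replicate was left out. The count of 3 loci over 2-fold was 3 under both scalings, without organelle loci and with at least 50 hits in both. The leading locus was the same in 20 of 21 groups with hits not divided by length and with coding length. In both, 3 groups had at least 75% in the leading locus in place of 4, and the share of AT1G34030 in RPS18 was 39.4% and that of RPS18C was 39.5%. It was the same in all 21 groups with unlisted loci at 5 hits, with a minimum of 10 hits, and with the shortest transcript, an alternative chosen after seeing the data. With either replicate left out, 18 to 21 groups had the same leading locus. Then 4 to 6 groups had at least 75% in their leading locus and 17 to 18 at least 50%, which groups of 2 loci reach by definition. In CC2 alone, AT5G02870 held 48.6% of RPL4, AT4G31700 48.7% of RPS6 and AT1G34030 36.9% of RPS18, each below another copy, whereas in CC1 alone they led with 55.0%, 52.6% and 43.5%. With the near-identical RPS2 copies added, also chosen after seeing the data, AT2G41840 held 73.8% on average. No paired analysis was possible because there was 1 group. With 2 replicates and no second condition, the spread is poorly known. Shares of copies with few windows of their own rest on how ambiguous hits were shared out. Other shares rest on it in some part too, since only 7 of the 52 listed loci had a whole value in CC1 and 6 in CC2. Both RPS6 copies had fractional values, though they had no window in common even with 2 mismatches. The size of this part was not tested.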
